A study of Mus musculus with 9 samples.

Results

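The Hox genes of the mouse were followed in stem cells labelled Hnrnpll-/- and in wild-type cells while both formed embryoid bodies. A gene was taken as a member when its name was Hoxa, Hoxb, Hoxc or Hoxd followed by a number, which gave 39 protein-coding genes among 49311 named genes. They lie in 4 clusters of the mm10 genome. The Hoxa cluster holds 11 genes on the minus strand of chr6:52155590-52260880. The Hoxb cluster holds 10 genes on chr11:96194316-96368256, the Hoxc cluster 9 genes on chr15:102921103-103036852 and the Hoxd cluster 9 genes on chr2:74668310-74765142, all on the plus strand. By paralog number, 12 members are anterior (1 to 4), 11 are middle (5 to 8) and 16 are posterior (9 to 13).

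Sequencing of polyA+ RNA covered mouse embryonic stem cells (day 0) and embryoid bodies, aggregates made from them in hanging drops, at day 4 and day 8. The Hnrnpll-/- knockout gave 2 libraries at each day, 1 from each of the lines called H8 and G6, and wild type gave 1 library at each day, so the 9 libraries form 6 groups. All cells were grown as stem cells with serum and leukemia inhibitory factor, and the labels name no feeder cells, no added retinoic acid and no other inducer. They do not say how the knockout lines were made or where in the gene the lesion lies. Hnrnpll is an hnRNP gene whose product binds RNA and acts in splicing. Its own transcript was at 24.5 (H8) and 54.9 TPM (G6) in knockout cells against 77.1 TPM in wild type at day 0, at 38.6 and 61.2 TPM against 101 TPM at day 4, and at 43.5 and 56.5 TPM against 112 TPM at day 8. TPM is a level scaled by gene length and by library size. The knockout libraries were thus lower than wild type at every day, and none was near 0. Wild type was 1 line, so the effect of genotype and that of line cannot be told apart.

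Total counts ran from 54218051 to 184952442 per library, and the shallowest were the day 0 knockout libraries, with 61626609 (H8) and 54218051 (G6). In these 2 libraries low counts fell on multiples of 4 more often than in the others. Among the low Hox counts 19 of 26 did so in H8 and 13 of 19 in G6. All 8 pluripotent markers (among them Pou5f1 and Nanog) were above 1 TPM in every library. The use of strand in counting is not given, and 16 of the 39 members share exon sequence with another annotated gene. Hoxd3 shares exon sequence with Hoxd4 and Hoxc10 with Hoxc5. Both Hoxd3 and Hoxd4 also share it with the antisense gene Hoxd3os1. The counts of these genes are therefore less certain.

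Hox genes encode homeodomain transcription factors that give cells their position along the body axis. In vertebrate embryos the genes at the anterior end of a cluster are switched on first and furthest toward the head, and the posterior ones follow later and nearer the tail. In stem cells the clusters are held silent by Polycomb complexes, and retinoic acid, Wnt and Fgf signals and the caudal (Cdx) factors open them. The clusters also carry microRNA genes and long noncoding RNAs that act on the Hox genes around them.

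The microRNAs of the clusters are shown because they lie among the members; 4 of the 5 mature sequences printed form 2 families with members in different clusters, and miR-615 has a seed of its own. Capitals mark the seed, bases 2 to 8, which leads target recognition. The mature sequences are from RefSeq (GRCm38.p6).
miR-10a-5p, Hoxb cluster, chr11:96317186-96317208: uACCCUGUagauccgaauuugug
miR-10b-5p, Hoxd cluster, chr2:74726074-74726096: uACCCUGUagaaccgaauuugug
miR-196a-5p, Hoxb cluster (Mir196a-1), chr11:96265187-96265208: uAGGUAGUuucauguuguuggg
miR-196b-5p, Hoxa cluster, chr6:52230129-52230150: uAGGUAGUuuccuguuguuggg
miR-615-3p, Hoxc cluster, chr15:103014969-103014990: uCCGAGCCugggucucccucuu
The miR-10 pair shares 1 seed and differs by U12A, counted from the 5′ end with miR-10a first. The miR-196 pair shares another seed and differs by A12C, with miR-196a first. The same miR-196a sequence also lies in the Hoxc cluster (Mir196a-2, chr15:102973365-102973386).

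Hoxb8 messenger RNA carries the best match to miR-196a among the members, a pairing known from mouse embryos to lead to cleavage of the Hoxb8 transcript. The site is at positions 2208 to 2229 of the 2635 bases of the GENCODE M21 transcript. Capitals mark the bases that pair with miR-196a, and the lower-case g faces a U as a wobble pair.
Hoxb8 site: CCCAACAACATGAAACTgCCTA
It pairs at 21 of 22 bases, with 1 wobble pair, whereas the best site in each of the other 38 members paired at 11 to 15 of 22 bases.

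Promoters were read in the 250 bases before the RefSeq start site, which the reference gave for 22 members (24 entries). Their GC content had a median of 58.6%, against 52.4% over 32851 promoters, and they held a median of 12.5 CpG pairs, against 6.0. Motifs were searched on both strands. TTTATG, the letters bound by caudal factors, lay in 5 of the 24 (20.8%), against 10.8% of all promoters. TGATNNAT, a PBX-HOX pair site, lay in 4 (16.7%), against 7.7%, and TATAAA in 4 (16.7%), against 12.4%. A match is a run of letters and not a shown binding site. The promoters of Hoxb1, Hoxb8 and Hoxd13 are shown as those of 1 anterior, 1 middle and 1 posterior member named below. Hoxb1 does not stand for its class at day 8, where it was near 0 in both knockout lines and in wild type. Capitals mark every match to the 3 motifs on either strand, and in Hoxd13 a forward and a reverse TATAAA match overlap.
Hoxb1, chr11:96365508-96365757, plus strand: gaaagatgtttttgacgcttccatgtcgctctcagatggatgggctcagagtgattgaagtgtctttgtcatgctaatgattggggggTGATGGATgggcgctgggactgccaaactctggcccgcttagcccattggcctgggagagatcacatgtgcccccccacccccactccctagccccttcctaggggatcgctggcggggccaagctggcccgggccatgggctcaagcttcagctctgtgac
Hoxb8, chr11:96281655-96281904, plus strand: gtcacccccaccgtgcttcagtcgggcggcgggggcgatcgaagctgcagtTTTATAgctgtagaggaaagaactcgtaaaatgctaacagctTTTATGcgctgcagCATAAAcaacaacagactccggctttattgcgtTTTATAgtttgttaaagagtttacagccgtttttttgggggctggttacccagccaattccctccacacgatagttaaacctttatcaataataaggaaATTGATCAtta
Hoxd13, chr2:74667975-74668224, plus strand: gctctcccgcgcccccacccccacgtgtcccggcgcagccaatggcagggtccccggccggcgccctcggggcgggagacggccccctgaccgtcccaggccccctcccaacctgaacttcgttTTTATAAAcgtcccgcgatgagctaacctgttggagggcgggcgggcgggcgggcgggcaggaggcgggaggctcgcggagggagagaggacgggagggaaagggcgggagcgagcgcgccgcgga
The Hoxb8 window holds 2 TTTATG matches, 2 TATAAA matches and 1 PBX-HOX match, the Hoxb1 window a single PBX-HOX match, and the GC-rich Hoxd13 window (74.4% GC) the TATAAA pair.

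The comparison of knockout with wild type at each day asks how the knockout of Hnrnpll alters gene expression as embryoid bodies form. At day 8 the Hox genes were low in both knockout lines and high in wild type. The summed level of the 39 genes was 44.0 TPM in H8 and 16.6 TPM in G6, against 278 TPM in wild type. At least 1 TPM was reached by 19 members in H8 and 3 in G6, against 31 in wild type. None reached 5 TPM in either knockout line, against 24 in wild type. Both knockout lines were below wild type for 35 of the 39 members, where 41.6% of all genes showed that order, and both were above it for 2, an order that 36.1% of all genes showed. In bulk RNA, fewer cells of a type that expresses these genes and less RNA per cell cannot be told apart.

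**Figure D1:**
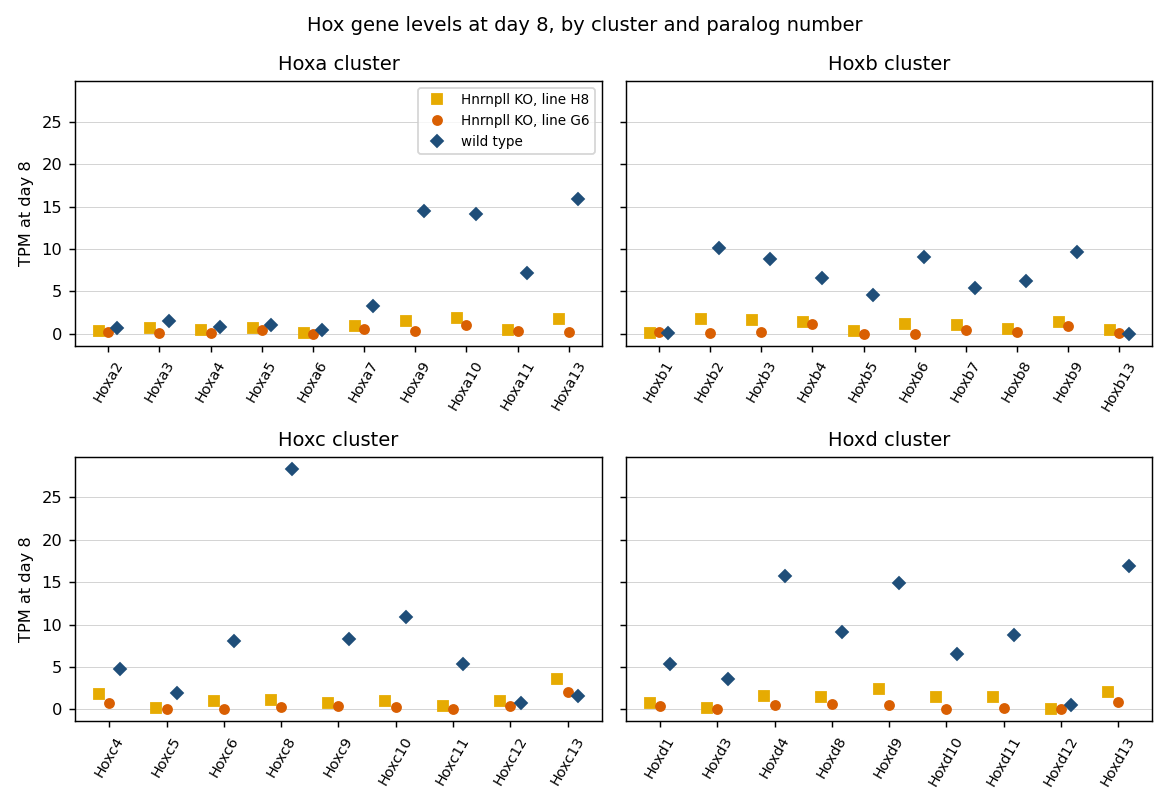
Level of Hox genes at day 8 in TPM, in paralog order within each cluster, for knockout line H8, knockout line G6 and wild type (1 library each). Wild type spans the range up to 28.4 TPM at Hoxc8, while no knockout value reaches 5 TPM.

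At day 8, edgeR's quasi-likelihood test with Benjamini-Hochberg adjustment over 24794 genes called 10 of 38 tested members lower in the knockout and 0 higher (adjusted p under 0.05); 4.86% of all genes were called lower and 5.01% higher, 9.87% in all. An unadjusted p under 0.05 was found for 23 members and for 29.7% of all genes. Hoxd12 was not tested, as it did not reach the filter level in 2 or more libraries. It had 87 counts in wild type, 12 in H8 and 4 in G6 at day 8. The fitted log2 fold change was below 0 for 36 of the 38, and the exceptions were Hoxb13 and Hoxc13; total count scaling adds Hoxc12 and the replicate block adds Hoxb1 to these. The median over the 38 was -3.27, against 0.08 over all genes. The 10 called genes comprised 3 of 12 anterior, 4 of 11 middle and 3 of 15 tested posterior members, and 1 of the Hoxa, 3 of the Hoxb, 2 of the Hoxc and 4 of the Hoxd cluster. DESeq2 called 20 members lower (11.8% of the genes it tested) and 1, Hoxb13, higher (12.6%). The other settings called members lower only: limma-voom 25 (9.85% of all genes), log2(TPM + 1) 28 (8.39%) and log2(TPM + 0.1) 16 (6.02%). A replicate block for the line also called members lower only, 5 of them (5.55%): Hoxb8, Hoxd4, Hoxd8, Hoxd13 and Hoxc4. In knockout against wild type, that block sets the fitted G6 level against wild type, and not the mean of both lines. All 10 calls were lost when the day 4 library of H8 or of G6, or the day 8 library of G6, was left out. Without the day 8 library of H8, 9 of the 10 calls were lost and Hoxb8 was kept, with 3 other members called (Hoxa13, Hoxb2 and Hoxb3). Over all genes those 4 fits called 0, 0, 2 and 562, against 2446 in the full fit.

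**Figure D2:**
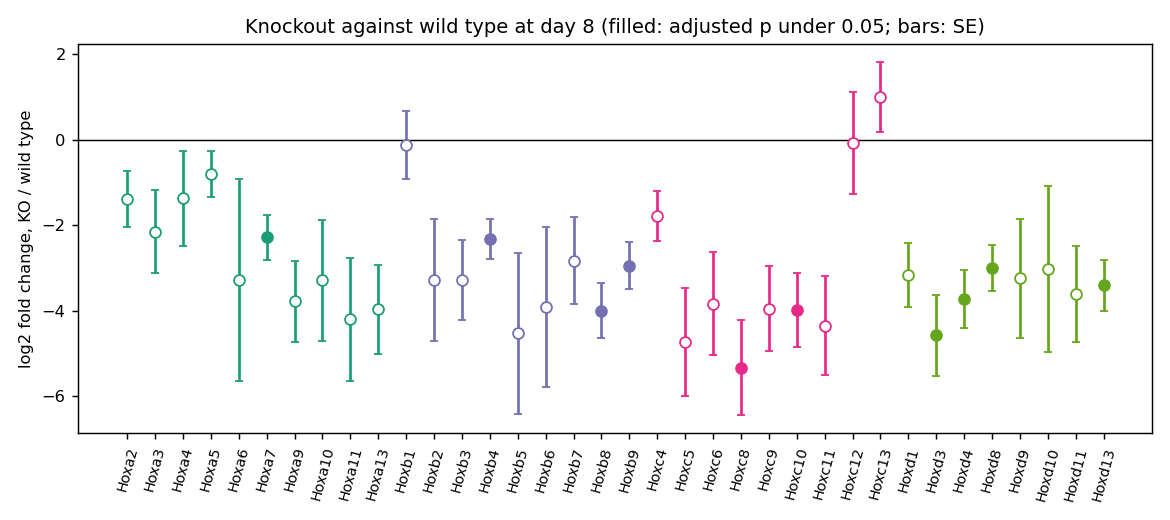
log2 fold change of knockout over wild type at day 8 for the Hox genes, grouped by cluster in paralog order, with the standard error of edgeR's fit as bars and filled points for an adjusted p under 0.05. Hoxb13, listed at 0 in wild type, and the untested Hoxd12 are among those not drawn; Hoxc13 alone lies above 0.

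Among the anterior members, 3 were called lower than wild type at day 8. Hoxb4, known for expanding blood stem cells, was at 1.33 TPM in H8 and 1.09 TPM in G6, against 6.58 TPM in wild type (log2 fold change -2.32 ± 0.47 SE, adjusted p = 0.0371). Both knockout values lay close together and well below wild type. Hoxd4, which patterns the hindbrain border and the neck vertebrae, was at 1.61 and 0.541 TPM in H8 and G6, against 15.7 TPM (-3.72 ± 0.68, adjusted p = 0.0374). Its neighbour Hoxd3 was at 0.138 and 0.0743 TPM, against 3.53 TPM (-4.57 ± 0.95, adjusted p = 0.0391). Both lines were below wild type in these 3 called genes, as in 11 of the 12 anterior members and 41.6% of all genes. Hoxb2, which acts with Hoxb1 in the hindbrain, was at 1.73 TPM in H8 and 0.0385 TPM in G6, against 10.1 TPM in wild type (-3.27 ± 1.43, adjusted p = 0.19). The lines stood far apart there, and the difference did not pass. Hoxb1 was near 0 in all 3 libraries, at 0.0551, 0.15 and 0.119 TPM in H8, G6 and wild type. Hoxa2, Hoxa3, Hoxa4, Hoxb3, Hoxc4 and Hoxd1 had fitted changes between -1.37 (Hoxa4) and -3.28 (Hoxb3), and none passed.

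Among the middle members, 4 were called lower than wild type at day 8, 1 in each cluster. Hoxc8, which patterns the thoracic vertebrae, was at 1.05 TPM in H8 and 0.245 TPM in G6, against 28.4 TPM in wild type, where no Hox gene was higher (-5.33 ± 1.11, adjusted p = 0.0393). Hoxb8, the member with the miR-196 site and a factor that keeps myeloid progenitors immature, was at 0.524 TPM in H8 and 0.18 TPM in G6, against 6.16 TPM in wild type (-4.0 ± 0.64, adjusted p = 0.025). Of the 10 members called lower, Hoxc8 had the largest fitted difference and Hoxb8 the lowest adjusted p. Hoxd8 was at 1.5 and 0.629 TPM in H8 and G6, against 9.16 TPM (-2.99 ± 0.54, adjusted p = 0.0294). Hoxa7 was at 0.919 and 0.507 TPM, against 3.27 TPM (-2.27 ± 0.53, adjusted p = 0.0491). Both knockout values were below wild type for all 11 middle members. Hoxb6 was at 1.08 TPM in H8 and at 0 in G6, against 9.04 TPM in wild type (-3.91 ± 1.87, adjusted p = 0.224). The other 6, Hoxa5, Hoxa6, Hoxb5, Hoxb7, Hoxc5 and Hoxc6, had fitted changes between -0.80 (Hoxa5) and -4.73 (Hoxc5), and none passed.

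The posterior members carried the largest summed level at day 8, with 21.1 TPM in H8 and 7.75 TPM in G6, against 136 TPM in wild type. Hoxd13, required for digits and the genital tubercle, was at 2.06 TPM in H8 and 0.88 TPM in G6, against 16.9 TPM in wild type (-3.40 ± 0.60, adjusted p = 0.0289). Hoxb9, which acts on the thoracic skeleton, was at 1.40 and 0.913 TPM in H8 and G6, against 9.62 TPM (-2.95 ± 0.55, adjusted p = 0.0313). Hoxc10, known from the lumbar spinal cord and hindlimb, was at 0.978 and 0.301 TPM, against 10.9 TPM (-3.97 ± 0.87, adjusted p = 0.0429). These 3 were called lower than wild type, and both lines were far below it in each. Hoxa13, the partner of Hoxd13 in the limb, was at 1.69 TPM in H8 and 0.222 TPM in G6, against 15.9 TPM in wild type (-3.96 ± 1.04, adjusted p = 0.065). Hoxa9, a regulator of blood progenitors, was at 1.43 and 0.298 TPM in H8 and G6, against 14.4 TPM (-3.77 ± 0.95, adjusted p = 0.0601). Neither passed, although their levels in wild type were among the highest. Hoxa10, needed in the uterus and lumbar spine, was at 1.82 and 0.993 TPM, against 14.2 TPM (-3.29 ± 1.41, adjusted p = 0.183). Hoxd9 was at 2.37 and 0.534 TPM, against 14.9 TPM (-3.24 ± 1.40, adjusted p = 0.185). Hoxc9, which sets thoracic motor neuron identity, was at 0.691 and 0.429 TPM, against 8.34 TPM (-3.95 ± 1.0, adjusted p = 0.0605). Hoxa11, Hoxc11, Hoxd10 and Hoxd11 had fitted changes between -3.02 (Hoxd10) and -4.35 (Hoxc11), and none passed.

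The most posterior genes of 2 clusters did not follow the others. Hoxc13, which controls hair and nail keratins, was at 3.55 TPM in H8 and 2.08 TPM in G6, against 1.52 TPM in wild type (1.0 ± 0.83, adjusted p = 0.465). Hoxb13, a marker of the tail end, had 103 counts in H8 and 15 in G6, against 0 in wild type. With a floor of 3 counts over the group its level was 15.7-fold higher in the knockout (adjusted p = 0.0929 with edgeR). Both knockout lines were above wild type for these 2 members, and neither passed edgeR's test, while DESeq2 called Hoxb13 higher. Hoxc12, the neighbour of Hoxc13, was at 0.994 and 0.345 TPM in H8 and G6, against 0.763 TPM (-0.07 ± 1.19, adjusted p = 0.98), so wild type lay between the lines. The untested Hoxd12 was at 0.0431 and 0.0149 TPM, against 0.523 TPM. A floor of this kind allows for counting error alone, as no molecular identifiers were read. It also takes counts as single units, while low counts fell on multiples of 4 more often than by chance. The folds given with it are therefore not strict lower bounds.

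The 2 knockout lines stood apart from each other at day 8. H8 was above G6 for 38 of the 39 members (Hoxb1 was the exception), an order that 51.4% of all genes showed. The median log2 ratio of H8 over G6 was 1.53 at day 8 over the 36 members detected in both, against 0.01 over all genes. It was -0.55 at day 0 and -0.20 at day 4, so the lines had no constant order; H8 was above G6 for 10 members at day 0 (40.4% of all genes) and for 15 at day 4 (40.9%). Over all days edgeR called 0 of 38 members between H8 and G6 (0.00403% of all genes called lower, 0.0% higher); Hoxc13 alone had an unadjusted p under 0.05 (8.68% of all genes), and DESeq2 also called 0. The difference within day 8 alone is 1 library against 1 and has no test.

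At day 0 Hox RNA was already present at a low level. The summed level was 23.6 TPM in H8 and 25.1 TPM in G6, against 41.1 TPM in wild type. The same libraries held fibroblast and mesenchyme marker RNA, which summed to 246 TPM in H8 and 314 TPM in G6, against 511 TPM in wild type. Which cells the Hox RNA came from was not tested. Hoxc13 was the highest member in H8, at 7.24 TPM in H8 and 1.96 TPM in G6, against 2.79 TPM in wild type, so wild type lay between the lines. Both lines were below wild type for 27 of the 39 members, including all 11 middle members, where 41.4% of all genes showed that order, and both were above it for 5 (29.9% of all genes). edgeR's quasi-likelihood test called 1 of 38 lower and 0 higher; 4.33% of all genes were called lower and 1.11% higher, 5.43% in all. An unadjusted p under 0.05 was found for 4 members and for 24.4% of all genes. The called member was Hoxb1, which gives identity to a hindbrain segment, with 0 counts in both lines and 42 counts in wild type. With a floor of 3 counts over the group it was 14.3-fold lower in the knockout (adjusted p = 0.0494 with edgeR). Low Hox counts in these knockout libraries often fell on multiples of 4, so that fold is not a strict lower bound. The call was lost with limma-voom, on TPM, with the replicate block and without any 1 of the 6 knockout libraries or the day 4 wild-type library.

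At day 4 anterior genes led in wild type. Hoxb1 was the highest member there and was at 0.384 TPM in H8 and 0.674 TPM in G6, against 6.91 TPM in wild type (63, 93 and 936 counts; log2 fold change -3.75 ± 0.70, adjusted p = 0.167). Hoxd1 was at 1.83 TPM in H8 and 1.96 TPM in G6, against 2.36 TPM in wild type. Both knockout lines were below wild type in these 2 genes. Over the 39 members both lines were below wild type for 14 (31.8% of all genes) and above it for 14 (40.6%). The middle class was nearly silent, with sums of 2.08 TPM in H8 and 2.92 TPM in G6, against 1.28 TPM in wild type. In wild type 12 of the 39 members were at 0 counts. Hoxd4 had 106 counts in H8 and 73 in G6, against 0 in wild type, 27.6-fold higher with the floor of 3 counts (adjusted p = 0.152 with edgeR). Its antisense neighbour Hoxd3os1 was lower in the knockout (-6.735 ± 1.419, adjusted p = 0.185 with edgeR), and the part of shared exons was not tested. Hoxb13 had 116 and 109 counts, against 0 in wild type, 34.7-fold higher with that floor (adjusted p = 0.227 with edgeR). At day 4 edgeR called 0 of 38 members (0.00807% of all genes); 9 had an unadjusted p under 0.05 (13.5% of all genes), DESeq2 called 7 (5 higher and 2 lower; 6.45% of all genes), and limma-voom 1 (0.226%).

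**Figure D3:**
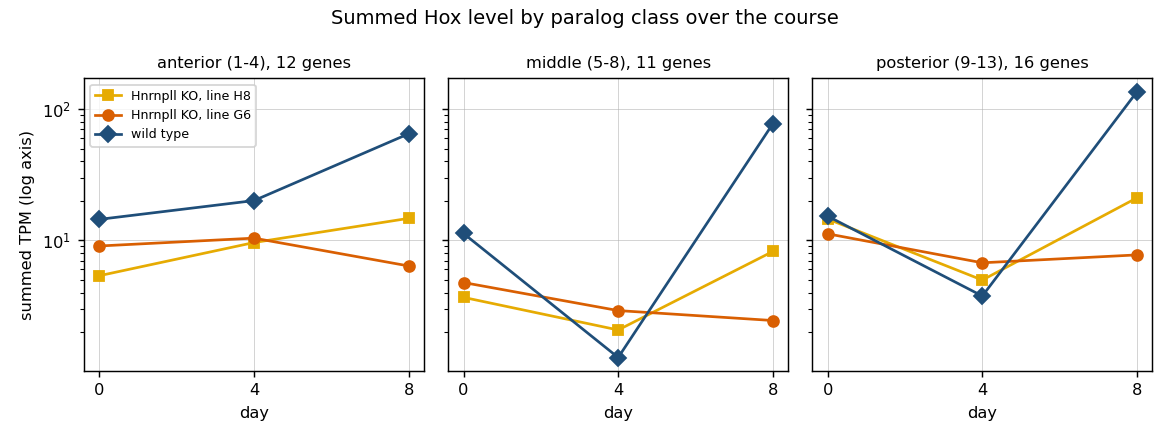
Summed TPM of the anterior, middle and posterior Hox genes (log axis) at day 0, 4 and 8 in knockout line H8, knockout line G6 and wild type. In wild type the middle class runs through 11.3, 1.28 and 77.4 TPM, while the knockout sums stay at or below 21.1 TPM in every class.

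Along the wild-type course, which has 1 library per day and no test, 31 of 39 members were lower at day 4 than at day 0, and 37 were higher at day 8 than at day 4. Over the 27 members detected at both days the median log2 ratio was -1.23 for day 4 over day 0 and 3.92 for day 8 over day 4, against -0.08 and 0.18 over all genes. For day 4 over day 0 the anterior class split into 6 higher and 6 lower members (median 0.85), while 11 of 11 middle members were lower (-2.89) and 14 of 16 posterior ones (-1.62). From day 4 to day 8 the medians were 2.30, 5.52 and 4.89 in the anterior, middle and posterior classes. For both intervals the class medians cover only the 10 anterior, 8 middle and 9 posterior members detected at both days. Members at 0 at day 4 are left out of them, while the counts of members cover the whole class. Wild type was highest at day 8 for 34 members, H8 for 32 and G6 for 6. In G6, 23 members were highest at day 0.

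Along the knockout course from day 0 to day 4, edgeR called 2 members higher and 1 lower (9.55% and 5.16% of all genes, 14.7% in all), and 10 had an unadjusted p under 0.05 (32.3% of all genes). Hoxb1 rose, with 0 counts in both lines at day 0 and 63 (H8) and 93 (G6) counts at day 4 (adjusted p = 0.0187). Hoxd4 rose, with 0 counts in both lines at day 0 and 106 and 73 counts at day 4 (adjusted p = 0.0176). These counts are not scaled for depth, and the day 0 knockout libraries were the shallowest. Hoxd3os1, which shares exon sequence with Hoxd4 on the other strand, changed in the opposite direction (-6.70 ± 1.36, adjusted p = 0.036 with edgeR). How reads were divided between these genes was not tested. Hoxc8 fell, with 0.623 TPM in H8 and 0.838 TPM in G6 at day 0 and 0 and 0.0488 TPM at day 4 (-4.80 ± 1.19, adjusted p = 0.047; 0.0611 with the replicate block). None of these 3 Hox calls stood without either day 4 library. From day 4 to day 8 edgeR called 0 members (0.311% of all genes), 13 had an unadjusted p under 0.05 (13.2% of all genes), and DESeq2 called 8 (7.3% of all genes). The fitted change was above 0 for 32 of 38 members, while 49.1% of all genes were fitted below 0. These were 8 of 12 anterior, 10 of 11 middle and 14 of 15 tested posterior members. The median change was 1.24, against 0.01 over all genes. This fit averages 2 lines that differed. The summed level of the 39 genes went from 16.7 to 44.0 TPM in H8 and from 20.1 to 16.6 TPM in G6.

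The knockout effect was also compared between days. For day 4 minus day 0 edgeR called 0 members (0.456% of all genes higher and 0.0484% lower, 0.504% in all), with 7 at an unadjusted p under 0.05 (17.2% of all genes) and 5 called by DESeq2 (8.86%). For day 8 minus day 4 it called 0 members (0.0% of all genes), with 18 at an unadjusted p under 0.05 (16.3% of all genes), 9 called by DESeq2 (7.53%) and 12 on log2(TPM + 1) (1.36%). Hoxd4 is 1 example, with 106 counts at day 4 and 262 at day 8 in H8, and 73 and 79 in G6. Wild type had 0 and 1617 counts, and the difference did not pass (adjusted p = 0.122 with edgeR). These counts are not scaled for depth, and Hoxd4 shares exon sequence with Hoxd3 and Hoxd3os1. Over all days together edgeR called 0 of 38 (0.387% of all genes higher, 0.984% in all); 15 had an unadjusted p under 0.05 (19.7% of all genes), DESeq2 called 12 (14.6%) and limma-voom 2 (3.57%).

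**Figure D4:**
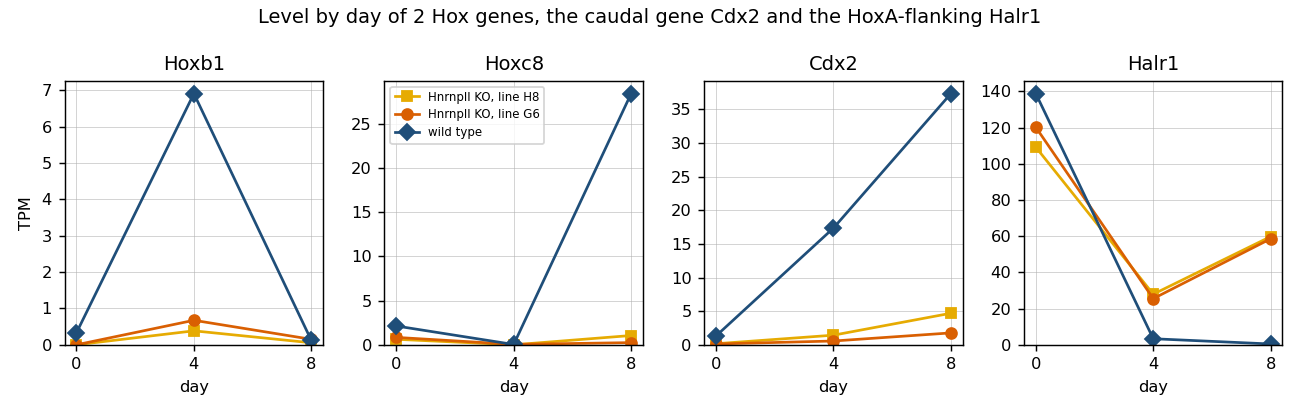
Level in TPM at day 0, 4 and 8 of Hoxb1, Hoxc8, the caudal gene Cdx2 and the noncoding gene Halr1 in knockout line H8, knockout line G6 and wild type (1 library per point). Hoxb1 peaks at day 4 in wild type at 6.91 TPM, Hoxc8 and Cdx2 at day 8 at 28.4 and 37.3 TPM, and Halr1 is at 0.453 TPM at day 8 in wild type and above 58 TPM in both knockout lines.

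Regulators and partners of the clusters were read from lists, beside 4.86% of all genes called lower and 5.01% called higher at day 8. All calls at day 8 in these lists were lost without the day 4 library of either line or the day 8 library of G6, the fits that called 0, 0 and 2 of all genes. Of 15 caudal and tail bud genes, 2 were called lower and 1 higher at day 8 (median 0.32, against 0.08 over all genes). Cdx2, a direct activator of Hox genes in the tail bud, was at 4.69 TPM in H8 and 1.77 TPM in G6, against 37.3 TPM in wild type (-3.41 ± 0.71, adjusted p = 0.039 with edgeR). At day 4 it was at 1.43 and 0.562 TPM in H8 and G6, against 17.4 TPM. Cdx2 was thus below wild type in both lines at both days, and H8 was above G6. Gdf11, a signal that turns on posterior Hox genes, was at 3.58 and 1.89 TPM, against 10.7 TPM (-1.85 ± 0.42, adjusted p = 0.0476); this call was also lost with total count scaling, with no filter and on log2(TPM + 0.1). Cdx4 was called higher from 0.224 TPM in H8 and 0.0911 TPM in G6, against 0 listed in wild type (adjusted p = 0.0437 with edgeR; 0.0562 with the replicate block), a call lost as well with limma-voom and on both TPM scales. Evx2, which lies beside Hoxd13, was at 0.113 TPM in H8 and 0 in G6, against 1.48 TPM in wild type, and did not pass (adjusted p = 0.223).

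Hox proteins bind DNA with partners of the TALE class. Of these, 3 of 9 were called lower at day 8 and 0 higher (4.86% and 5.01% of all genes), with a median of -1.44. Meis2 was at 12.8 TPM in H8 and 13.9 TPM in G6, against 63.4 TPM in wild type (-2.19 ± 0.30, adjusted p = 0.0211 with edgeR). Meis1 was at 2.46 and 2.14 TPM in H8 and G6, against 9.84 TPM (-2.22 ± 0.47, adjusted p = 0.0397; 0.056 with the replicate block). In both of these cofactors the 2 lines lay close together and below wild type.

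Of 19 genes of retinoic acid signalling, 2 were called higher and 2 lower at day 8 (5.01% and 4.86% of all genes), with a median of -0.44. Rarb, a receptor that is itself a retinoic acid target, was at 0.497 TPM in H8 and 0.378 TPM in G6, against 7.99 TPM in wild type (-4.06 ± 0.38, adjusted p = 0.0142 with edgeR). Rdh10, which makes retinal for retinoic acid synthesis, was at 12.9 and 9.35 TPM, against 37.6 TPM (-1.63 ± 0.38, adjusted p = 0.0486), a call lost with total count scaling and with no filter. Both lines were below wild type in these 2 genes. The receptor Rarg was at 77.0 and 91.0 TPM in H8 and G6, against 37.9 TPM (1.22 ± 0.19, adjusted p = 0.0237), and Rxrg was called higher at 0.327 and 0.348 TPM, against 0 listed in wild type, a call lost with limma-voom and on both TPM scales. The synthesis enzyme Aldh1a2 was at 1.15 and 0.731 TPM, against 4.05 TPM, and did not pass (adjusted p = 0.0636). The breakdown enzyme Cyp26a1 was at 33.3 and 24.6 TPM, against 61.4 TPM, and did not pass either (adjusted p = 0.294).

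Chromatin regulators of the clusters were called in both directions at day 8, where 5.01% of all genes were called higher and 4.86% lower. Of 26 Polycomb genes, 4 were called higher and 5 lower at day 8 (median -0.17). The largest were Cbx8 (0.918 TPM in H8 and 0.587 TPM in G6, against 3.91 TPM; -2.47 ± 0.41) and Phc1 (229 and 359 TPM, against 71.5 TPM; 2.02 ± 0.33), both subunits of the compacting complex. Bmi1 was at 8.78 and 7.52 TPM, against 30.7 TPM (-1.99 ± 0.36), and Pcgf5 at 24.8 and 20.9 TPM, against 92.1 TPM (-1.89 ± 0.21). All 4 passed, with adjusted p = 0.026, 0.0255, 0.0307 and 0.0175 in edgeR's test in that order. The catalytic subunit Ezh2 had -0.42 ± 0.16 and did not pass (adjusted p = 0.137). Of 14 trithorax genes and H3K27 demethylases, 1 was called higher and 1 lower (5.01% and 4.86% of all genes). Wdr5 was at 219 TPM in H8 and 202 TPM in G6, against 113 TPM in wild type (1.0 ± 0.15, adjusted p = 0.0234), and the demethylase Kdm6b at 16.9 and 12.8 TPM, against 43.4 TPM (-1.42 ± 0.19, adjusted p = 0.021).

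Among noncoding genes of the clusters, 20 were listed, 17 had a match and 11 could be tested. At day 8, 1 was called higher and 1 lower, where 5.01% of all genes were called higher and 4.86% lower. Halr1, which lies beside the Hoxa cluster and is known in mouse stem cells as a noncoding RNA that restrains Hoxa genes, was at 59.8 TPM in H8 and 58.6 TPM in G6, against 0.453 TPM in wild type (6.85 ± 0.36, adjusted p = 0.0142 with edgeR). At day 4 it was at 27.9 and 25.5 TPM, against 3.34 TPM, and at day 0 at 109 and 120 TPM, against 139 TPM. Its knockout effect differed between day 4 and day 0 (interaction 3.13 ± 0.36, adjusted p = 0.0428; 0.0616 with the replicate block). The lines lay close together for Halr1, while the Hoxa genes beside it were above wild type in neither line at day 8. Haglr, a noncoding gene of the Hoxd cluster that overlaps Hoxd3, was at 1.34 and 0.477 TPM, against 5.44 TPM (-2.72 ± 0.59, adjusted p = 0.0429; 0.0611 with the replicate block). Mir196a-1 was at 7.39 TPM in H8 and 13.1 TPM in G6, against 10.9 TPM in wild type (0.02 ± 0.89, adjusted p = 0.995), so wild type lay between the lines. These reads come from polyadenylated transcripts over the hairpin and do not measure the mature microRNA printed above. The other microRNA genes of the clusters were at or below 0.407 TPM in every library.

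Of 17 listed genes that border the clusters, 16 could be tested, and 1 was called lower and 0 higher at day 8 (4.86% and 5.01% of all genes), with a median of 0.11, against 0.08 over all genes. It was Lnpk, beside the Hoxd cluster, at 23.5 TPM in H8 and 24.6 TPM in G6, against 49.8 TPM in wild type (-1.03 ± 0.20, adjusted p = 0.0338 with edgeR). Its fitted difference from wild type was smaller than that of each of the 4 called Hoxd genes.

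Markers of several cell types also differed at day 8, where 4.86% of all genes were called lower and 5.01% higher. Of 12 fibroblast and mesenchyme markers, 5 were called lower in the knockout (Col3a1, Dcn, Prrx1, Pdgfrb and Twist1), and the list summed to 256 TPM in H8 and 70.5 TPM in G6, against 1594 TPM in wild type. At day 0 the list summed to 246 and 314 TPM in H8 and G6, against 511 TPM, and at day 4 to 78.4 and 70.8 TPM, against 186 TPM. From day 0 to day 4 in the knockout, 4 of the 12 were called lower and 0 higher (5.16% and 9.55% of all genes). Thy1 of that list was fitted above 0 at day 8 (0.94). Lum was at 0 in both lines at day 0 and day 4 and in G6 at day 8. Of 8 cardiac markers, 6 were called lower, and they summed to 11.2 and 7.54 TPM, against 259 TPM. Haemato-endothelial markers summed to 56.6 and 53.3 TPM, against 680 TPM, with 2 of 7 tested called lower and Pecam1 fitted above 0 (1.24), and yolk sac endoderm markers to 62.0 and 62.3 TPM, against 347 TPM, with 1 of 8 called lower. Neural markers summed to 46.8 and 30.5 TPM, against 79.6 TPM, with 1 of 7 tested called lower (Nes, -1.66) and Sox1 (2.45), Pax6 (0.67) and Map2 (0.66) fitted above 0. Of 8 pluripotent markers, 7 were called higher, and they summed to 7125 and 7412 TPM, against 1227 TPM. The part of the cell type makeup in the Hox differences was not tested.

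**Figure D5:**
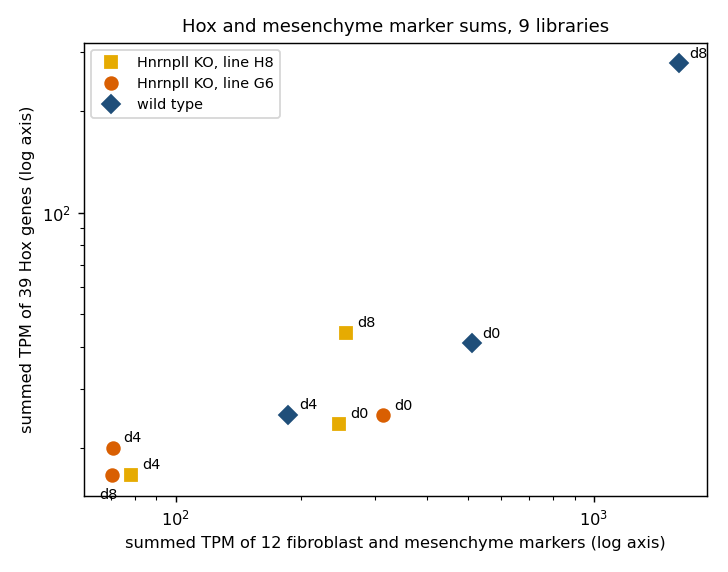
Summed TPM of the 39 Hox genes against that of 12 fibroblast and mesenchyme markers, both on log axes, for the 9 libraries (H8, G6 and wild type, labelled by day). Wild type at day 8 stands apart in both sums, at 278 and 1594 TPM, and H8 at day 8 lies above G6 at day 8 on both axes.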

How the data were processed

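The authors deposited 1 table of raw counts and 1 of TPM, both per gene, for every library; the submitters' processing notes name HISAT2 2.0.5, StringTie 1.3.3b and mm10, and their roles, options, annotation and strand use are not given in the sources used here. The 49326 named identifiers of the count tables matched GENCODE M21; the 259 unnamed entries per table (0.0242% to 0.0398% of counts) were left out. Low counts (up to 40) lay on multiples of 4 in 42.6% (H8) and 43.5% (G6) of cases in the day 0 knockout libraries and in 30.5% to 33.2% elsewhere, where 25% is the chance share.

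A gene was kept if 2 or more libraries passed a CPM of 0.0791, which equals 10 counts at the median depth (24794 genes). Counts were scaled by TMM and tested two-sided by edgeR's quasi-likelihood method (R 4.3.3, edgeR 4.0.16, limma 3.58.1); p-values were adjusted over all genes by Benjamini-Hochberg, with a threshold of 0.05. A model with 6 group means (3 residual degrees of freedom) served days, courses and differences between days, an additive model (5) all days together, and a model with the line as a term (2) H8 against G6; 9 comparisons were made. The spread of the lone wild-type library is taken from the knockout lines, and p-values measure only the spread between these libraries. Before use, the fits of some comparisons were run on simulated counts with set fold changes. The simulation had no line effect and less spread between libraries than these data, so it gives no error rate for them. The same 2 lines were sampled at each day, and the H8 minus G6 differences correlated between days (Pearson r of 0.188, 0.159 and 0.417 over 15063 genes), so a replicate block is among the alternatives, with RLE, total counts, no filter, DESeq2 1.42.0, limma-voom, log2(TPM + 1), log2(TPM + 0.1), a log2 fold change over 1 and libraries left out.

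Members and lists were chosen with earlier results of these data known. Values per library are given for members past the threshold in any comparison and for the 3 highest of each cluster, and of each list up to 4 members past the threshold are named, with some regulators in any case. Hoxb13, Hoxc12, Hoxc13, Hoxd12, Hoxd1, Ezh2, Evx2, Hoxd3os1 and the sequences shown were singled out after their values were seen. The values of 1 member and of 1 cofactor are not reported here, though both are in the counts and sums.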

Additional observations from a re-analysis of the deposited data

How the results depend on the processing

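Among the 14 pairs of member and comparison called by edgeR, 237 repeats under other settings never reversed a direction; 162 stayed past the threshold and 75 did not. At day 8 the count of called members was 10, and was 21 with DESeq2, 25 with limma-voom, 28 on log2(TPM + 1), 16 on log2(TPM + 0.1) and 5 with the replicate block; with a library left out it was between 0 and 12. At day 0 the count was 1, and was 3 with DESeq2, 0 with limma-voom and on both TPM scales, 0 with the replicate block and between 0 and 1 with a library left out. At day 4 it was 0, and was 7 with DESeq2, 1 with limma-voom and 1 on log2(TPM + 1). For knockout day 4 over day 0 it was 3, and was 10 with DESeq2, 1 with limma-voom, 1 on log2(TPM + 1) and between 0 and 3 with a library left out. For knockout day 8 over day 4 DESeq2 called 8. For the difference between days, DESeq2 called 5 (day 4 minus day 0) and 9 (day 8 minus day 4), and log2(TPM + 1) called 1 and 12. Over all days DESeq2 called 12, limma-voom 2 and fits with a library left out between 0 and 1. Over all genes edgeR called 5.43% at day 0 and 14.7% for knockout day 4 over day 0. The shares of all genes called by the other settings in these comparisons were not counted, so their member counts have no background. The same holds for the counts on log2(TPM + 1) at day 4 and for day 4 minus day 0. It also holds for the fits with a library left out over all days. These counts cannot be read as results about the members. The cause of the differences between settings was not tested.

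The replicate block pairs libraries of 1 line, and against wild type it sets the fitted G6 level, not the mean of both lines. With it, the 5 members called at day 8 were Hoxb8, Hoxd4, Hoxd8, Hoxd13 and Hoxc4. It called 2 members for knockout day 4 over day 0 and 0 in the other comparisons. Total count scaling moved the median of all genes at day 8 to 0.17, against 0.08 with TMM. Without the day 4 library of either line, 36 of 38 members were fitted below 0 at day 8. The median over the 38 was -3.27, as in the full fit. The named genes of other lists, for which the alternatives were added after the data were seen, kept their direction throughout; Halr1 was called at day 8 in 14 of 17 and its difference between day 4 and day 0 in 8 of 15. Wild type has 1 library per day, so its own spread is unknown, and in the day 0 knockout libraries members with few counts could not be resolved.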
